A study of Mus musculus with 6 samples.

Results

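Costimulation and checkpoint genes encode the molecules that set the strength of T cell activation when a T cell meets an antigen-presenting cell. Of the 55401 genes in the deposited tables, 10 were taken here by name through their Ensembl identifiers: the B7 family ligands Cd80, Cd86, Cd274 (PD-L1), Pdcd1lg2 (PD-L2) and Icosl, the receptors Cd28, Pdcd1 (PD-1), Havcr2 (TIM-3) and Cd200r1, and Cd200, the ligand of Cd200r1. The RNA came from bulk colonic lamina propria cells of male Apc Min/+ mice aged 5 to 6 weeks. These mice carry a truncating mutation in one copy of the tumour suppressor Apc and form intestinal adenomas. Vehicle, 2% Tween 80, was given by gavage to the mice of 3 libraries, and atorvastatin, an inhibitor of cholesterol synthesis, at 20 mg/kg on alternate days to those of the other 3 libraries. All 6 libraries share the Apc allele, so no group is free of it. Whether each library is a separate animal is not stated in the labels, so the p-values reflect variation among libraries that could be technical.

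T cells need a signal from CD28 beside that of the antigen receptor, and CD80 and CD86 on dendritic cells, macrophages and B cells supply it. PD-1 damps the same signals when it binds PD-L1 or PD-L2. PD-L1 is made by many cell types under interferon, PD-L2 mainly by dendritic cells, macrophages and some B cells. ICOS ligand engages ICOS, a relative of CD28 on activated T cells. TIM-3 is an inhibitory receptor of effector T cells and myeloid cells, and CD200, a surface protein of lymphocytes, endothelium and neurons, restrains myeloid cells through the CD200 receptor.

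The cell types that carry these molecules were present by their markers. The summed level of 10 T cell markers was 89.6 to 111 FPKM with vehicle and 80.5 to 98.8 FPKM with atorvastatin, where FPKM is the deposited unit of fragments scaled by gene length and library size. For 10 dendritic cell markers the ranges were 189 to 261 and 164 to 190 FPKM, and Siglech, which marks plasmacytoid dendritic cells, stayed under 1 FPKM in every library. Most of this sum was Ccr7, which B and T cells share, at 129 to 183 and 111 to 130 FPKM. Flt3, Zbtb46, Xcr1, Clec9a and Cd209a had means of 1.73 to 2.56 FPKM over the 6 libraries. For 12 macrophage and monocyte markers the ranges of the sum were 136 to 286 and 221 to 240 FPKM, with Cd163 and Cx3cr1 under 1 FPKM. The 10 B cell markers summed to 372 to 482 FPKM with vehicle and 289 to 312 FPKM with atorvastatin, without overlap. Markers of blood and lymphatic endothelium, of fibroblasts and, at 19.1 to 47.9 FPKM over 10 genes, of epithelium were also found. Vehicle library 3 stood apart, with a mean Pearson's r of 0.944 to the others across genes, against 0.957 to 0.961 for the other 5.

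In these libraries PD-L1 was by far the most abundant of the 10 transcripts, and CD86 came next. The mean of Cd274 over 6 libraries was 182 FPKM, rank 279 among the 13590 genes that had at least 1 FPKM in at least 3 libraries, and that of Cd86 was 41.4 FPKM, rank 1109. A middle group followed in which neighbours in the order did not differ beyond their spread: Cd200 with a mean of 20.1 FPKM, Pdcd1 with 18.8, Cd28 with 17.4, Icosl with 14.5 and Pdcd1lg2 with 12.8 FPKM. Neighbours within it kept their order in 3 or 4 of 6 libraries only. Cd80 had a mean of 7.33 FPKM and Havcr2 one of 5.18 FPKM, in that order in 6 of 6 libraries although their ranges met. Cd200r1 was the lowest, with a mean of 1.54 FPKM. The order of Cd274 over Cd86, of Cd86 over Cd200, of Pdcd1lg2 over Cd80 and of Havcr2 over Cd200r1 held without any overlap between their 6 libraries.

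**Figure D1:**
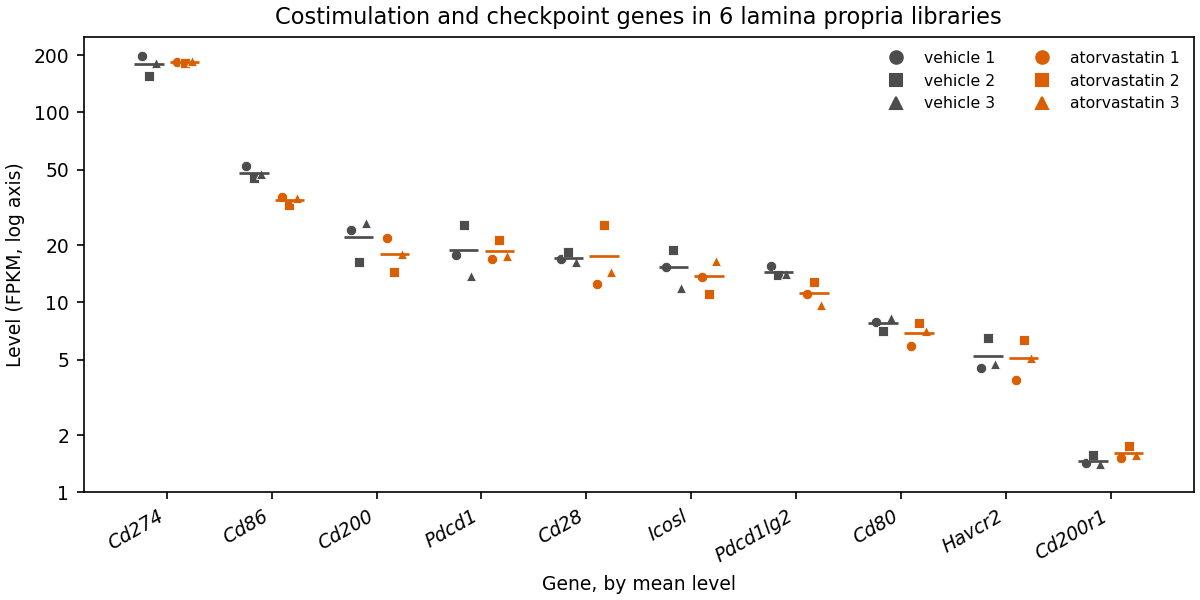
Level of each of the 10 genes in each library (vertical log axis, FPKM; horizontal axis, genes by mean level; grey, vehicle; orange, atorvastatin; symbols, library number; short lines, group means, n = 3). Cd86 and Pdcd1lg2 are the genes whose orange points all lie below the grey ones. In the deposited scaling shown, the 3 atorvastatin libraries lie close together in Cd274 at 183 to 187 FPKM.

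With atorvastatin, the transcripts of CD86 and PD-L2 were the ones whose levels lay below those of every vehicle library, while PD-L1, PD-1, CD28 and TIM-3 differed by little between the group means. Differences are between group means of log2(FPKM + 1), a scale that understates changes at low levels. Lower and higher genes of a list are counted by the sign of this difference, which is not that of the FPKM means in Pdcd1 and Cd28, both near 0. The differences were tested with limma over all 13590 genes. At a Benjamini-Hochberg adjusted p of 0.05 limma called 0 of the 10 members, on a background of 0% of all genes. Before adjustment, 2 members had a limma p under 0.05, Cd86 and Pdcd1lg2, both lower, where 4.04% of all genes were lower, 3.13% higher and 7.17% either way by that rule. The same 2 members were lower without overlap between the groups, where 8.85% of all genes were. The median difference of the members was -0.09 and that of all genes tested -0.02. The members all exceeded 1 FPKM in each of the 6 libraries, so none was kept for its level in one group alone. Bulk RNA cannot tell fewer cells of a type from less RNA per cell.

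**Figure D2:**
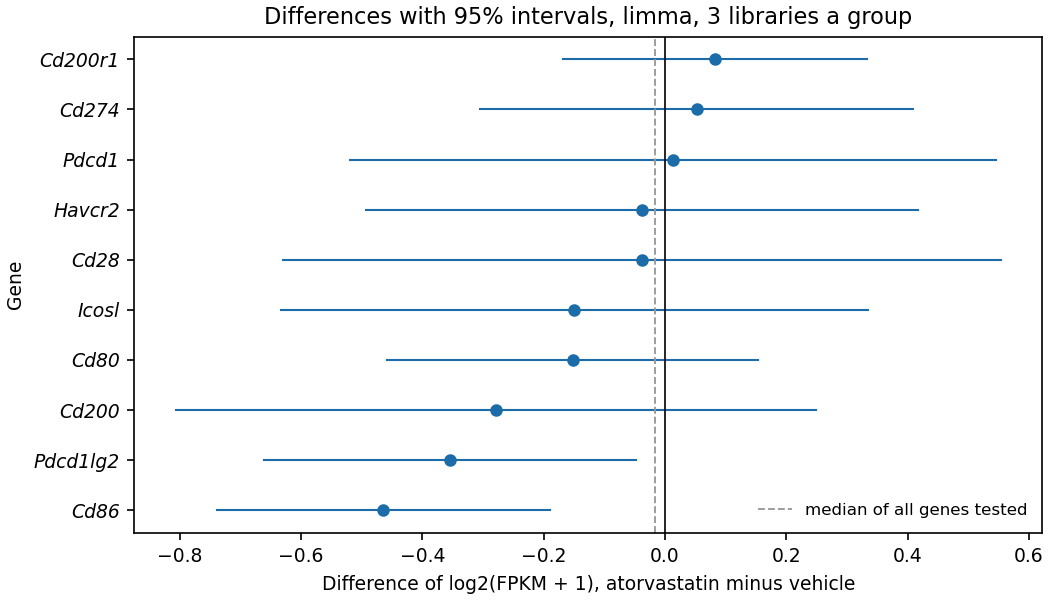
Difference between the groups for each gene (horizontal axis, log2(FPKM + 1), atorvastatin minus vehicle; points, estimates; lines, 95% intervals from limma, n = 3 per group; dashed line, median of all genes tested). The intervals of Cd86 and Pdcd1lg2 lie below 0 before adjustment for the 13590 genes, and the other 8 include 0.

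Among the ligands of CD28, Cd86 (ENSMUSG00000022901, mm10 chromosome 16, 36603869 to 36666081, minus strand), the B7 molecule that resting antigen-presenting cells already carry, had 52.0, 45.1 and 47.4 FPKM with vehicle and 35.9, 32.7 and 35.2 FPKM with atorvastatin. The lowest vehicle library lay above the highest atorvastatin library. The means were 48.2 ± 3.52 (SD, n = 3) and 34.6 ± 1.69 FPKM (SD, n = 3), a change of -28.2%. The log2 difference was -0.46 (SE 0.12, 95% interval -0.74 to -0.19, limma unadjusted p = 0.00533, adjusted p = 0.692), at rank 70 of all genes by p. The groups of Cd86 also did not overlap after rescaling the libraries to equal sums, by median of ratios, or to equal sums outside immunoglobulin and mitochondrial genes. With equal sums the difference was -0.40 and the unadjusted p in limma 0.0849.

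Cd80 (ENSMUSG00000075122, chromosome 16, 38455561 to 38496335, plus strand), which rises on activation and binds CD28 and CTLA-4 more tightly than CD86 does, had 7.88, 7.07 and 8.30 FPKM with vehicle and 5.89, 7.78 and 7.03 FPKM with atorvastatin. Its groups overlapped, and the log2 difference was -0.15 (SE 0.13, 95% interval -0.46 to 0.15, limma adjusted p = 0.783). It moved to -0.06 without atorvastatin library 1, -0.07 with equal sums outside immunoglobulin and mitochondrial genes, and -0.23 without atorvastatin library 2. Per transcript of Cd80 there were 6.60, 6.38 and 5.71 transcripts of Cd86 by FPKM with vehicle and 6.10, 4.20 and 5.01 with atorvastatin, again with overlap. This and the other ratios within libraries were chosen after the values were seen; they do not depend on how the libraries were scaled, and they are given without a test.

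The receptor of both ligands, Cd28 (ENSMUSG00000026012, chromosome 1, 60716800 to 60773359, plus strand), had 16.9, 18.5 and 16.3 FPKM with vehicle and 12.5, 25.5 and 14.5 FPKM with atorvastatin. The atorvastatin libraries spread on both sides of the vehicle libraries, with library 2 the highest of the 6. The log2 difference was -0.04 (SE 0.25, 95% interval -0.63 to 0.55, limma adjusted p = 0.977), and it turned to 0.03 after scaling to equal sums. Leaving out atorvastatin library 2 gave -0.33 (limma unadjusted p = 0.047). Ctla4, an inhibitory receptor that competes for the same ligands, had 26.0, 26.2 and 33.5 FPKM with vehicle and 25.1, 27.4 and 24.1 FPKM with atorvastatin, with overlap and a log2 difference of -0.15 (SE 0.14).

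Markers of cells that can carry CD86 are given beside it, with those of some other cell types. All 10 B cell markers were lower with atorvastatin, with a median log2 difference of -0.44. Cd79a, a chain of the B cell receptor, had 178, 207 and 155 FPKM with vehicle and 135, 130 and 117 FPKM with atorvastatin, a change of -29.2% of the mean. Relative to Cd79a in the same library, Cd86 stood at 0.292, 0.218 and 0.306 with vehicle and at 0.266, 0.252 and 0.301 with atorvastatin, and these ratios overlapped. Relative to Ccr7, a chemokine receptor of migrating dendritic cells that B and T cells share, Cd86 stood at 0.348, 0.246 and 0.367 and at 0.289, 0.252 and 0.318, with overlap as well. Ccr7 changed by -21.1% of the mean, and Itgax, of the same dendritic cell list, by -8.20%. Cd86 stood at 10.3, 5.34 and 7.57 times Itgax with vehicle and at 7.11, 4.60 and 5.90 times with atorvastatin, also with overlap. The means of this ratio were 7.75 and 5.87. Cd79a, Ccr7 and Itgax, the denominators used, each had a lower mean with atorvastatin. Zbtb46, also of the dendritic cell list, changed by -0.13% of the mean, and Cd68, of the macrophage and monocyte list, by 19.0%. Ratios of Cd86 to Zbtb46 or to Cd68 were not determined. Of the dendritic cell markers 8 of 9 tested were lower, with a median log2 difference of -0.17, and of the macrophage and monocyte markers 9 of 10 tested were higher, with a median of 0.25. Neutrophil markers summed to 25.6 to 33.4 FPKM with vehicle and 18.9 to 25.5 FPKM with atorvastatin, without overlap, and 5 of 5 tested were lower, with a median of -0.35. Epithelial markers summed to 34.6 to 47.9 and 19.1 to 46.98 FPKM, with overlap, and 7 of 7 tested were lower, with a median of -0.55. Smooth muscle and pericyte markers summed to 518 to 938 and 659 to 882 FPKM, with overlap, and 7 of 7 were higher, with a median of 0.15. Endothelial markers summed to 273 to 292 and 240 to 311 FPKM, with overlap, and 7 of 8 were higher, with a median of 0.14. Genes of the immediate early and heat shock responses, which cell isolation can induce, were higher in 11 of 11 cases and summed to 5758 to 5914 FPKM with vehicle and 6468 to 9006 FPKM with atorvastatin. The part of these markers in the difference of Cd86 was not tested.

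The genes of the PD-1 ligands are neighbours on chromosome 19, 22.8 kb apart and on the same strand, and their levels differed in pattern. Cd274 (ENSMUSG00000016496, 29367455 to 29388095) had 198, 156 and 182 FPKM with vehicle and 184, 183 and 187 FPKM with atorvastatin. As deposited, the atorvastatin values all lay inside the vehicle range, with a coefficient of variation of 1.17% against 12.1%. This closeness depended on the scaling. With equal sums the atorvastatin values of Cd274 were 197, 162 and 212 FPKM, against 152 to 197 FPKM with vehicle. With equal sums outside immunoglobulin and mitochondrial genes they were 182, 200 and 190 FPKM, against 160 to 197 FPKM. The log2 difference of Cd274 was 0.05 (SE 0.15, 95% interval -0.30 to 0.41, limma adjusted p = 0.942) and turned to -0.04 without vehicle library 2. Pdcd1lg2 (ENSMUSG00000016498, 29410919 to 29471161) had 15.6, 13.9 and 14.1 FPKM with vehicle and 11.0, 12.8 and 9.72 FPKM with atorvastatin. The highest atorvastatin library lay just under the lowest vehicle library. The means were 14.5 ± 0.918 (SD, n = 3) and 11.2 ± 1.56 FPKM (SD, n = 3), with a log2 difference of -0.35 (SE 0.13, 95% interval -0.66 to -0.05, limma unadjusted p = 0.0291, adjusted p = 0.692). With libraries rescaled to equal sums outside immunoglobulin and mitochondrial genes, the groups of Pdcd1lg2 overlapped, and the difference was -0.27 (limma unadjusted p = 0.134). The unadjusted p of Pdcd1lg2 in limma also passed 0.05 without vehicle library 1 (0.0974), atorvastatin library 1 (0.0785) or atorvastatin library 3 (0.108), where the difference was -0.31, -0.35 and -0.27.

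The ratios of Cd274 to Pdcd1lg2 and to Cd86 were higher in each atorvastatin library than in any vehicle library. Both denominators are members already lower without overlap, and Cd274 differed by little, so these ratios restate those differences. They are no separate result on PD-L1, and the share of other gene pairs whose ratios stand apart was not determined. Cd274 had 12.8, 11.2 and 13.0 times the FPKM of Pdcd1lg2 with vehicle and 16.7, 14.2 and 19.2 times with atorvastatin. It had 3.81, 3.45 and 3.85 times the FPKM of Cd86 with vehicle and 5.13, 5.58 and 5.30 times with atorvastatin, means of 3.70 ± 0.222 (SD, n = 3) and 5.34 ± 0.230 (SD, n = 3). Neither pair of ranges overlapped. Relative to Ccr7, Pdcd1lg2 stood at 0.104, 0.0759 and 0.109 with vehicle and at 0.0887, 0.0988 and 0.0878 with atorvastatin, with overlap. Ccr7, which B and T cells share, itself changed by -21.1% of the mean. Of its dendritic cell list 8 of 9 tested genes were lower on the log2 scale, but Zbtb46 changed by only -0.13% of the mean. Ratios of Pdcd1lg2 to other cell markers were not determined. Antisense gene models lie opposite both ligand genes, AC119228.1 at up to 5.7 FPKM opposite Cd274 and A930007I19Rik at up to 0.63 FPKM opposite Pdcd1lg2. How the counting treated strand is not stated in the labels, so reads of these partners cannot be told apart from those of the ligands.

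**Figure D3:**
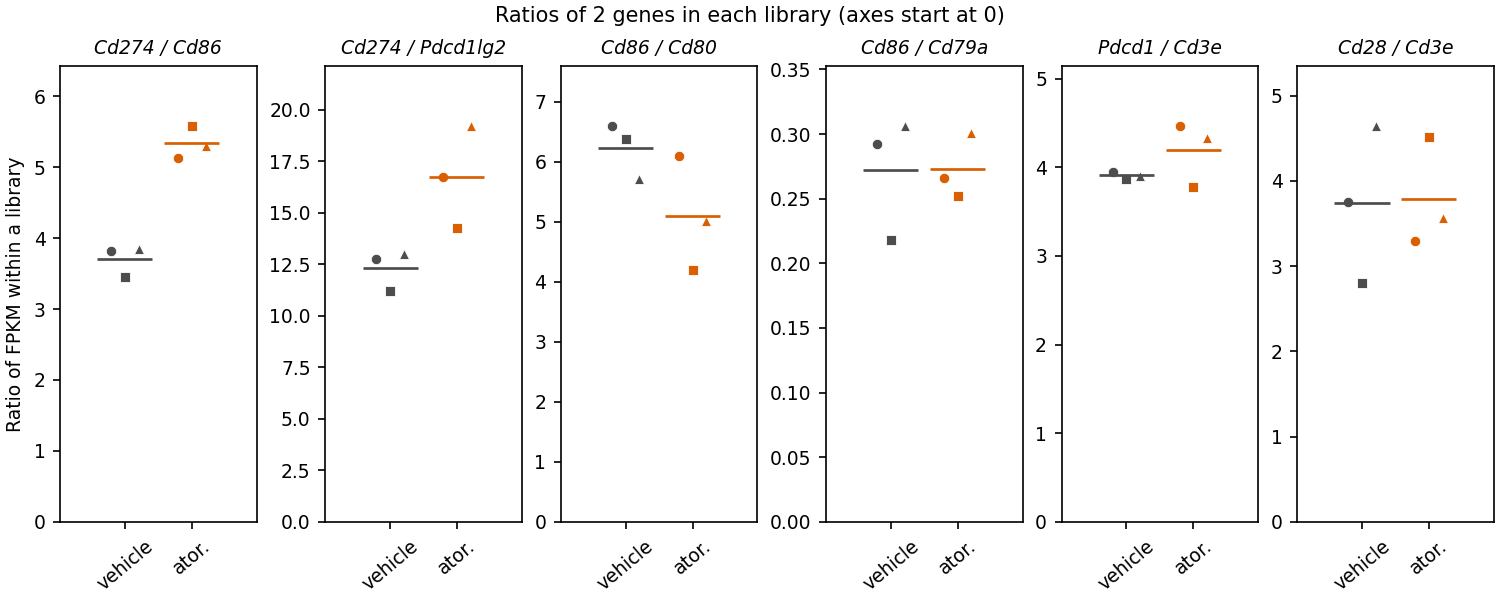
Ratios of the FPKM of 2 genes within each library (vertical axes, ratio, from 0; grey, vehicle; orange, atorvastatin; symbols, library number; short lines, group means, n = 3). The groups stand apart for Cd274 over Cd86 and for Cd274 over Pdcd1lg2, and overlap for the other 4 ratios.

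The 250 bases before the RefSeq start of these neighbouring genes, which differ in level by more than 10 times, are shown with that of Cd80, because interferon regulatory factors, STAT factors and AP-1 are known regulators of B7 genes. RefSeq (GRCm38.p6, the same assembly as mm10) gave a promoter for 7 of the 10 members, and Cd86, Cd28 and Cd200r1 had no entry. Each sequence runs 5′ to 3′ on the plus strand of its gene, at chr19:29367188-29367437 for Cd274, chr19:29410669-29410918 for Pdcd1lg2 and chr16:38458683-38458932 for Cd80, and capitals mark a motif match.
Cd274: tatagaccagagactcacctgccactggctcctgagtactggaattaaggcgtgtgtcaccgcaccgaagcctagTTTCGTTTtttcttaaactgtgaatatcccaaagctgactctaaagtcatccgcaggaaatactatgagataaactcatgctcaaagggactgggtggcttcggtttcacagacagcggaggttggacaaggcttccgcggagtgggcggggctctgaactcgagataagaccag
Pdcd1lg2: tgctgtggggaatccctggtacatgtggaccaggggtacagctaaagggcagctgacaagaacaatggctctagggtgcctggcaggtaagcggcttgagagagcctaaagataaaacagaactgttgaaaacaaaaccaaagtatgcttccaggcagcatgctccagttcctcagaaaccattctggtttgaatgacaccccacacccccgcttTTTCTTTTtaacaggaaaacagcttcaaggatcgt
Cd80: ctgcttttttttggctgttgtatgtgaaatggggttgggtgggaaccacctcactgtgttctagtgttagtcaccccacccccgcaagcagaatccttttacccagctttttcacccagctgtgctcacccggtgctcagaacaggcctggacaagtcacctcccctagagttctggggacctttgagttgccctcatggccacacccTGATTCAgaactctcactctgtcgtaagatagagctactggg
The motifs searched on both strands were AANNGAAA for interferon regulatory factors, TTCNNNGAA for STAT factors and TGANTCA for AP-1. In all 32851 RefSeq promoter windows of 250 bases they occurred in 21.3%, 7.02% and 6.75%. The interferon letters occurred once in Cd274, 168 to 175 bases before the start, and once in Pdcd1lg2, 28 to 35 bases before it, in each case on the opposite strand as the reverse complement. They also occurred once in Pdcd1, 21 to 28 bases before the start, and once in Cd200, 97 to 104 bases before it, so 4 of the 7 member windows held them. A longer form of this motif, a tandem of GAAA with 2 free bases between, was searched first and matched 0 of the 7 windows. The STAT letters were not found in the windows of the 3 genes shown. The AP-1 letters occurred once in Cd80, 36 to 42 bases before the start, and once in Havcr2. The Cd80 window lies inside the gene model given above, which starts at 38455561, so this distance holds for the RefSeq start only. A match is a description of letters and not evidence of binding, and the lack of one says only that these letters are not in the window.

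PD-1 itself overlapped between the groups. Pdcd1 (ENSMUSG00000026285, chromosome 1, 94038305 to 94052553, minus strand) had 17.7, 25.4 and 13.7 FPKM with vehicle and 17.0, 21.4 and 17.6 FPKM with atorvastatin, so the vehicle range enclosed the atorvastatin range. Its log2 difference was 0.01 (SE 0.22, 95% interval -0.52 to 0.54, limma adjusted p = 0.992), and its sign turned when vehicle library 1 or 3 or atorvastatin library 2 was left out. Against Cd3e, part of the CD3 complex of T cells, the vehicle libraries lay close together: Pdcd1 had 3.95, 3.87 and 3.90 times the FPKM of Cd3e with vehicle and 4.47, 3.78 and 4.33 times with atorvastatin. Against Trac, the constant region of the T cell receptor alpha chain, they did not, at 0.651, 0.885 and 0.541 times with vehicle and 0.757, 0.880 and 0.620 times with atorvastatin. Cd28 had 3.76, 2.81 and 4.65 times the FPKM of Cd3e and 3.30, 4.51 and 3.56 times, and 0.619, 0.642 and 0.644 times that of Trac and 0.558, 1.05 and 0.510 times. All 4 of these ratios overlapped between the groups.

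ICOS ligand, TIM-3 and the CD200 pair overlapped between the groups. Icosl (ENSMUSG00000000732, chromosome 10, 78069302 to 78079525, plus strand) had 15.4, 18.8 and 12.0 FPKM with vehicle and 13.6, 11.0 and 16.5 FPKM with atorvastatin. Its log2 difference was -0.15 (SE 0.20, 95% interval -0.63 to 0.33, limma adjusted p = 0.868). That difference rested on single libraries, at -0.0023 without vehicle library 2, -0.012 without atorvastatin library 2, -0.28 without atorvastatin library 3 and -0.31 without vehicle library 3, and it was -0.06 with equal sums outside immunoglobulin and mitochondrial genes. The ratio of Icosl to its receptor gene Icos was 0.936, 1.07 and 0.641 with vehicle and 0.865, 0.669 and 1.00 with atorvastatin, with overlap.

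Havcr2 (ENSMUSG00000020399, chromosome 11, 46454935 to 46481255, plus strand) had 4.50, 6.49 and 4.74 FPKM with vehicle and 3.88, 6.33 and 5.12 FPKM with atorvastatin. Library 2 was the highest in each group, and the group means of 5.24 ± 1.09 (SD, n = 3) and 5.11 ± 1.23 FPKM (SD, n = 3) differed by less than the spread. The log2 difference was -0.04 (SE 0.19, 95% interval -0.49 to 0.42, limma adjusted p = 0.970), and it turned to 0.02 with equal sums per library. Lgals9, which encodes galectin-9, a reported ligand of TIM-3, had 125, 109 and 141 FPKM with vehicle and 127, 83.4 and 121 FPKM with atorvastatin.

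Cd200 (ENSMUSG00000022661, chromosome 16, 45382135 to 45409053, minus strand) had 24.1, 16.2 and 26.3 FPKM with vehicle and 21.8, 14.4 and 17.9 FPKM with atorvastatin. Library 2 was the lowest in each group, the groups overlapped, and the log2 difference was -0.28 (SE 0.22, 95% interval -0.81 to 0.25, limma adjusted p = 0.770). Its size depended on single libraries: leaving out atorvastatin library 2 gave -0.13, and leaving out vehicle library 2 gave -0.48 (limma unadjusted p = 0.048). Its receptor gene Cd200r1 (ENSMUSG00000022667, chromosome 16, 44765736 to 44794978, plus strand) had 1.43, 1.57 and 1.41 FPKM with vehicle and 1.52, 1.75 and 1.58 FPKM with atorvastatin, a log2 difference of 0.08 (SE 0.11, 95% interval -0.17 to 0.33, limma adjusted p = 0.857). The groups of Cd200r1 overlapped as deposited and did not overlap with equal sums per library. Cd200r4, a close relative in sequence with which reads may be shared, had 2.10, 2.05 and 2.14 FPKM and 1.49, 2.18 and 1.85 FPKM.

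The wider pathway showed few differences between the groups. Of 76 further genes in 7 lists, 62 passed the filter, and limma called 0 of them at an adjusted p of 0.05, against 0% of all genes. Before adjustment 1 of the 62, Cd48, had a limma p under 0.05, lower with atorvastatin. By that rule 4.04% of all genes were lower and 7.17% differed either way, which is also the background for the counts of each list below. Of the 62, 45 were lower and 17 higher, with a median difference of -0.06 (44 and 18 by FPKM means, with the sign turned in Tnfrsf4, Tnfsf14 and Irf1), while 47.0% of all genes tested were higher. Without overlap between the groups 3 of the 62 were lower and 0 higher, against 8.85% lower and 5.53% higher of all genes.

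Among 6 tested relatives of the B7 and CD28 families 4 were lower and 2 higher, and 0 had a limma p under 0.05 before adjustment. Besides Ctla4 the most abundant was Btla, an inhibitory receptor of B and T cells, with 31.1, 19.8 and 25.7 FPKM with vehicle and 24.2, 12.4 and 19.5 FPKM with atorvastatin. Its log2 difference was -0.45 (SE 0.27, limma unadjusted p = 0.133). The unadjusted p of Btla in limma was under 0.05 in 2 of 15 alternatives, at 0.0145 with the replicate number as a block and 0.0484 without atorvastatin library 1. It rose to 0.399 without atorvastatin library 2, where the difference was -0.20. Vtcn1 did not reach the filter, with at most 0.02 FPKM. Among 9 of 16 other checkpoint receptors that were tested, 6 were lower and 3 higher. Tigit, an inhibitory receptor of T and NK cells, had 25.3, 41.1 and 25.2 FPKM and 26.1, 49.8 and 26.5 FPKM, and Timd4, a phosphatidylserine receptor, 18.8, 19.9 and 17.8 FPKM and 14.2, 22.0 and 18.1 FPKM. Havcr1, which encodes TIM-1, had 1.60, 1.71 and 1.70 FPKM and 1.29, 1.38 and 1.40 FPKM, without overlap; it was named after its values were seen, as were Cd47 and Ifngr2, the other 2 tested pathway genes whose groups stood apart.

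Checkpoint ligands outside the members were lower in 7 of 9 cases. Cd48, a ligand of the receptor 2B4 on lymphocytes, had 27.6, 25.9 and 24.6 FPKM with vehicle and 15.9, 24.8 and 17.9 FPKM with atorvastatin, a log2 difference of -0.41 (SE 0.17, limma unadjusted p = 0.0488, adjusted p = 0.692). Its groups met at atorvastatin library 2, without which the difference was -0.59, and with the replicate number as a block its unadjusted p was 0.0595. Cd47, which restrains phagocytosis, had 44.1, 39.4 and 47.6 FPKM and 34.8, 34.0 and 37.8 FPKM, without overlap (log2 difference -0.29, SE 0.12, adjusted p = 0.692 in limma). Lgals9, given above, and Lgals3, with 65.4, 88.5 and 118 FPKM and 92.8, 83.1 and 67.0 FPKM, were the most abundant of the list. Costimulatory members of the TNF superfamily were lower in 8 of 9 cases on the log2 scale, with a median difference of -0.04, and in 6 of 9 by FPKM means, since Tnfrsf4 and Tnfsf14 differed by little. None of the 9 had an unadjusted p under 0.05 in limma. Tnfrsf9 (4-1BB) had 32.4, 32.7 and 43.6 FPKM and 39.2, 31.7 and 33.8 FPKM, and Tnfrsf18 (GITR) 24.6, 24.0 and 22.4 FPKM and 24.5, 23.1 and 20.7 FPKM.

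Signalling genes below CD28 and the T cell receptor had 9 of 14 lower, with a median difference of -0.04, and 0 had a limma p under 0.05 before adjustment. The most abundant were the adaptor Grb2, with 49.98, 32.2 and 25.8 FPKM with vehicle and 28.5, 26.6 and 46.6 FPKM with atorvastatin, and the kinase subunit Pik3cd, with 34.5, 35.7 and 15.3 FPKM and 28.2, 19.7 and 21.3 FPKM. Phosphatases and adaptors through which inhibitory receptors act had 4 of 6 lower. Ptpn6 (SHP-1) had 18.5, 19.4 and 14.6 FPKM and 15.0, 13.2 and 15.1 FPKM, and Inpp5d (SHIP1) 18.5, 23.1 and 13.2 FPKM and 14.9, 15.9 and 14.0 FPKM. Genes of the interferon gamma pathway that drives PD-L1, with 2 genes that stabilise the protein, were lower in 7 of 9 cases, with a median difference of -0.06. Irf1, a direct activator of the PD-L1 gene, had 224, 99.7 and 120 FPKM with vehicle and 149, 119 and 164 FPKM with atorvastatin, Jak1 had 95.04, 79.9 and 81.7 FPKM and 99.9, 84.4 and 106 FPKM, and Ifngr2, a receptor chain, had 13.4, 13.3 and 12.6 FPKM and 12.2, 10.02 and 10.9 FPKM. With the replicate number as a block Ifng, the gene of interferon gamma, had an unadjusted p of 0.0195 in limma (log2 difference -0.50), against 0.360 without it. Vehicle library 1 had the highest Irf1 and the highest Cd274 of the 6, and vehicle library 2 the lowest of both. In the atorvastatin libraries Irf1 ran from 119 to 164 FPKM, while Cd274 stayed at 183 to 187 FPKM. These extremes were seen after the values were known, and a relation between the 2 genes was not tested.

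**Figure D4:**
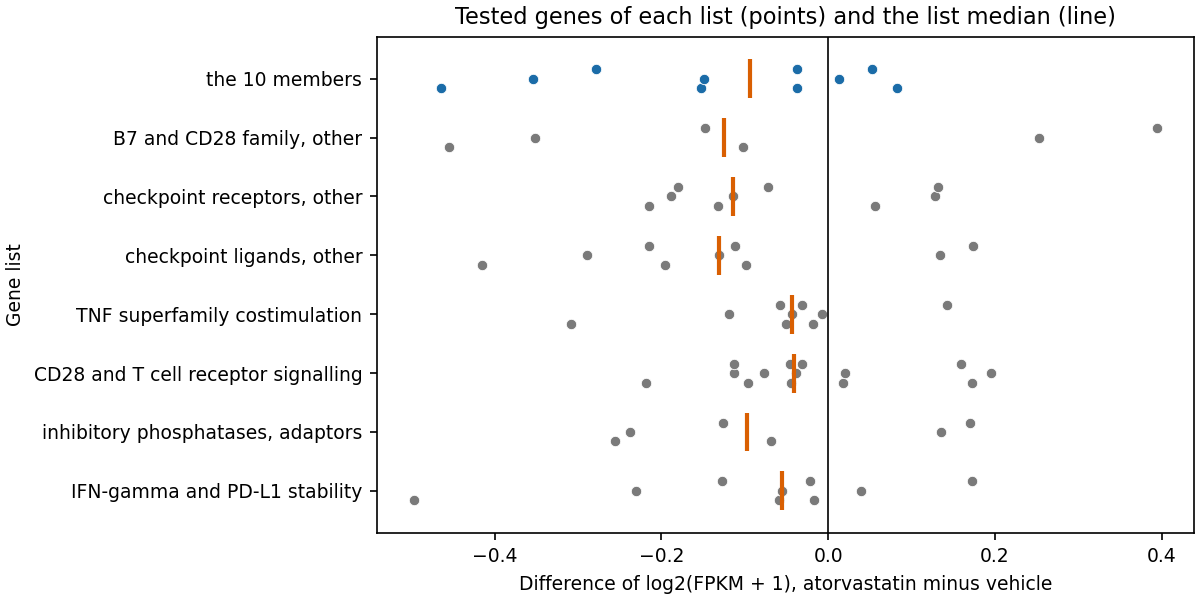
Difference between the groups for each tested gene of the 10 members and of 7 related lists (horizontal axis, log2(FPKM + 1), atorvastatin minus vehicle; vertical axis, list; points, genes; orange lines, list medians). The members range from -0.46 to 0.08, with 7 below and 3 above 0, and the related lists have medians between -0.13 and -0.04.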

How the data were processed

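The deposited tables hold FPKM, which the authors had scaled by gene length and library. FastQC 0.11.2, Bowtie and mm10 are named per the submitters' processing notes. The quantifier, annotation and strand setting were not given in the sources used here. Fragment counts are unknown, so no counting error can be stated. Library sums ranged from 355787 to 456064 FPKM. Immunoglobulin genes made up from 27.9% of the sum, in atorvastatin library 3, to 47.9%, in atorvastatin library 2.

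Symbols came from GENCODE mouse release 21, and 195 of 195 listed genes matched. The 13590 genes that reached 1 FPKM in 3 or more libraries were tested as log2(FPKM + 1) with limma 3.58.1 (limma-trend, R 4.3.3). The p-values were adjusted by Benjamini-Hochberg. The fit was also run on simulated data, with shifts larger than the difference of any member. That run does not show what can be detected at the sizes given here. The members and lists were chosen with earlier results of these data known. The text names all members, the 2 most abundant genes of each related list, those with an unadjusted p under 0.05, and the 3 genes most correlated with Cd86 and with Cd274. One gene that this rule names is not reported here. Alternatives were pseudocounts of 0.1 and 0.5, no filter or 2 FPKM, 3 rescalings, robust variance, a block for the replicate number, and omission of each library. No protein sequences were used here.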

Additional observations from a re-analysis of the deposited data

How the results depend on the processing

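Cd86, Pdcd1lg2, Cd80, Icosl and Cd200 kept the sign of their difference under all 15 alternatives, and Cd200r1 under the 14 that gave it a value; at a filter of 2 FPKM Cd200r1 was not tested. With single libraries left out, Icosl ranged from -0.31 to -0.0023, Cd80 from -0.23 to -0.057, Cd200 from -0.48 to -0.13 and Cd200r1 from 0.046 to 0.11. Over all 15 alternatives Cd86 ranged from -0.51 to -0.37, and from -0.51 to -0.41 with single libraries left out. It had an unadjusted p under 0.05 in limma under 14 of 15, with equal sums per library the exception. Pdcd1lg2 ranged from -0.45 to -0.27 over all 15 and had an unadjusted p under 0.05 in limma under 9 of 15. The count of members with an unadjusted p under 0.05 was 0 with equal sums, 1 by median of ratios and 1 with equal sums outside immunoglobulin and mitochondrial genes. Leaving out single libraries gave 1 to 3 members. The count of pathway genes was 0 under each of these rescalings, 2 with no filter, with robust variance and with the replicate block, and 0 to 3 when single libraries were left out. Over all genes it was 1761 with no filter, 446 with equal sums and 459 to 1138 when single libraries were left out, against 974. Of these 974 genes 425 were higher and 549 lower. With equal sums 300 were higher and 146 lower, and with equal sums outside immunoglobulin and mitochondrial genes 837 and 254. The adjusted count in limma was 0 genes, with 0 to 2 when single libraries were left out. The cause of these shifts was not tested.

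With equal sums the difference turned to 0.026 in Cd28, 0.019 in Havcr2, 0.024 in Tnfrsf9 and 0.0082 in Tnfrsf18. With equal sums outside immunoglobulin and mitochondrial genes it turned to 0.052 in Cd28, 0.042 in Havcr2, 0.018 in Timd4, 0.049 in Tnfrsf9, 0.032 in Tnfrsf18 and 0.014 in Grb2. With single libraries left out the ranges that crossed 0 were -0.044 to 0.13 in Cd274, -0.19 to 0.24 in Pdcd1, -0.33 to 0.16 in Cd28, -0.18 to 0.12 in Havcr2, -0.17 to 0.36 in Tigit, -0.22 to 0.082 in Timd4, -0.34 to 0.076 in Lgals3, -0.13 to 0.094 in Tnfrsf9, -0.11 to 0.0054 in Tnfrsf18, -0.32 to 0.18 in Grb2 and -0.20 to 0.38 in Irf1.

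Whether the replicate numbers pair the libraries is not stated in the labels. Deviations from the group means correlated at -0.11, 0.14 and -0.02 across genes for numbers 1, 2 and 3. Between different numbers these correlations ran from -0.16 to 0.19. With 3 libraries a group such values cannot decide whether the libraries are paired. With the number as a replicate block Cd86 had an unadjusted p of 0.0104 and Pdcd1lg2 one of 0.0457 in limma, 0 genes passed at an adjusted p of 0.05, and 852 had an unadjusted p under 0.05. The 2 pathway genes under 0.05 with the block were Btla (0.0145) and Ifng (0.0195), and Cd48 passed above it (0.0595). With 3 libraries a group and no fragment counts, the intervals of 8 members include changes of either sign.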

Other observations

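Some receptors of T cells, but not all, had their highest level in library 2 of each group. Pdcd1 had 25.4 FPKM in vehicle library 2 and 21.4 FPKM in atorvastatin library 2, Cd28 18.5 and 25.5 FPKM, Havcr2 6.49 and 6.33 FPKM, and Tigit 41.1 and 49.8 FPKM. Icos was highest in library 3 of each group (18.6 and 16.5 FPKM), Tnfrsf18 in library 1 of each (24.6 and 24.5 FPKM), Ctla4 in vehicle library 3 (33.5 FPKM), Tnfrsf9 in vehicle library 3 and atorvastatin library 1 (43.6 and 39.2 FPKM), and Lag3 in atorvastatin library 1 (8.50 FPKM). The T cell marker Cd3e was highest in the same libraries, with 6.58 and 5.66 FPKM, and so was the sum of 10 T cell markers, with 111 and 98.8 FPKM. Cd200 (16.2 and 14.4 FPKM), Btla (19.8 and 12.4 FPKM) and Ifng, the main inducer of PD-L1 (5.61 and 4.10 FPKM), had their lowest level of each group there. Library 2 of each group also had the highest immunoglobulin share of the FPKM sum (38.4% and 47.9%) and the highest sum of epithelial markers (47.9 and 46.98 FPKM). The labels give no shared origin for libraries of the same number, and these patterns were seen after the values were known.

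Over the 6 libraries genes with a pattern most like Cd86 in log2(FPKM + 1) included Cfl1 (Pearson's r of 0.990) and Eps15 (0.989), and 220 genes had an r over 0.9. Those most like Cd274 were 2010315B03Rik (0.986), Cyth1 (0.976) and Scyl2 (0.950), and 37 genes had an r over 0.9. These are descriptions over 6 points that share the group difference and the library scaling.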
